A study of Homo sapiens with 6 samples.

Results

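Transforming growth factor beta (TGF-beta) receptors, SMADs and targets were described in MG63 cells through 9 genes taken by symbol from a table of 61806 genes. They were the ligand gene TGFB1, the receptor genes TGFBR1, TGFBR2 and TGFBR3, the SMAD genes SMAD2, SMAD3, SMAD4 and SMAD7, and the target gene CCN2. The set was chosen by pathway and in part on the measured reads of TGFBR2, which lay in control cells only, so the values of TGFBR2 in the 2 groups are given as a description with no test. MG63 is an established human osteosarcoma line of the osteoblast lineage. The study set 3 shFTO libraries, from MG63 cells with a stable short hairpin against FTO, beside 3 shNC libraries, from MG63 cells with a control hairpin. FTO is an RNA demethylase that removes the N6-methyladenosine mark. The labels call the 3 libraries of each group biological replicates and do not say how many hairpins or clones were used.

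In TGF-beta signalling the ligand binds the type II receptor TGFBR2, which brings in and phosphorylates the type I receptor TGFBR1, while TGFBR3 (betaglycan) presents ligand as a co-receptor. TGFBR1 phosphorylates SMAD2 and SMAD3, which join SMAD4 and act on genes in the nucleus. SMAD7, itself induced by the pathway, blocks the active receptor, and CCN2 encodes a matricellular protein that TGF-beta induces in mesenchymal cells. In bone the ligand is stored in the matrix in latent form and acts on osteoblasts and their precursors.

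Values were deposited as FPKM, the reads of a gene scaled to the length of its exons and to the total reads of the library, and they stood for whole reads. The 6 libraries held between 93629 and 106245 reads each, and between 3208 and 3435 genes had reads in a library. These are the reads behind the deposited table, and no source used here says whether they are all reads sequenced. FTO was listed at 0 in all 6 libraries, the controls included, so the knockdown could not be checked. A count of 0 over a group allows up to 3 reads, which for FTO is 0.462 FPKM in shFTO and 0.486 FPKM in shNC. Of 9 bone and mesenchymal lineage genes, 6 had reads, and ALPL, BGLAP and SPP1 were at 0 in every library. Of 5 epithelial genes, KRT8 had 1 read in each group and the rest had none, and 4 blood cell genes had no reads. Intervals and limits from reads cover counting error only.

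Of the 9 genes 8 had reads, 404 in all, of which 191 were in shFTO and 213 in shNC. SMAD4, SMAD7 and CCN2 held 366 of them. By mean FPKM over the 6 libraries, CCN2 came first at 75.1, then SMAD7 at 55.6, SMAD4 at 11.4, TGFBR2 at 3.00, SMAD3 at 1.72, TGFBR1 at 0.785, SMAD2 at 0.532 and TGFB1 at 0.48, with TGFBR3 at 0. In shFTO alone TGFBR2 was at 0, below SMAD3 at 1.65 FPKM, TGFBR1 at 1.57, TGFB1 at 0.96 and SMAD2 at 0.48. In shNC alone TGFBR2 came after SMAD4, above SMAD3 at 1.78 FPKM and SMAD2 at 0.583, and TGFBR1 and TGFB1 were at 0. CCN2, SMAD7 and SMAD4 led in that order in both groups. CCN2 was above SMAD7 in 4 of 6 libraries and their ranges overlapped. SMAD7 was above SMAD4 in 6 of 6 libraries with no overlap at the deposited lengths, between 28.6 and 78.4 FPKM against 5.26 and 20.5. Their reads were near equal, 130 for SMAD7 over 3946 exonic bases and 131 for SMAD4 over 19668, so this gap rests on length. SMAD4 was above TGFBR2 in 6 of 6 libraries, though in the shFTO libraries TGFBR2 was at 0, the value it was picked for. The lowest SMAD4 value lay below the highest TGFBR2 value. From TGFBR2 down, the range of each gene overlapped that of the next. CCN2 and SMAD7 stood at the 95.8th and 94.9th percentile of the 7057 genes with reads, SMAD4 at the 86.4th and TGFB1 at the 24.8th. FPKM depends on the exonic length used. With lengths from GENCODE release 29 SMAD4 would stand at 17.1 FPKM and SMAD7 at 43.6, in the same order of genes. The ranges of SMAD4 and SMAD7 would then overlap. Those lengths join all annotated exons of a gene, so the order by the length of single transcripts was not tested. SMAD2, with 11 reads over 36426 exonic bases, stood below TGFBR1, with 4 reads over 7990.

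**Figure D1:**
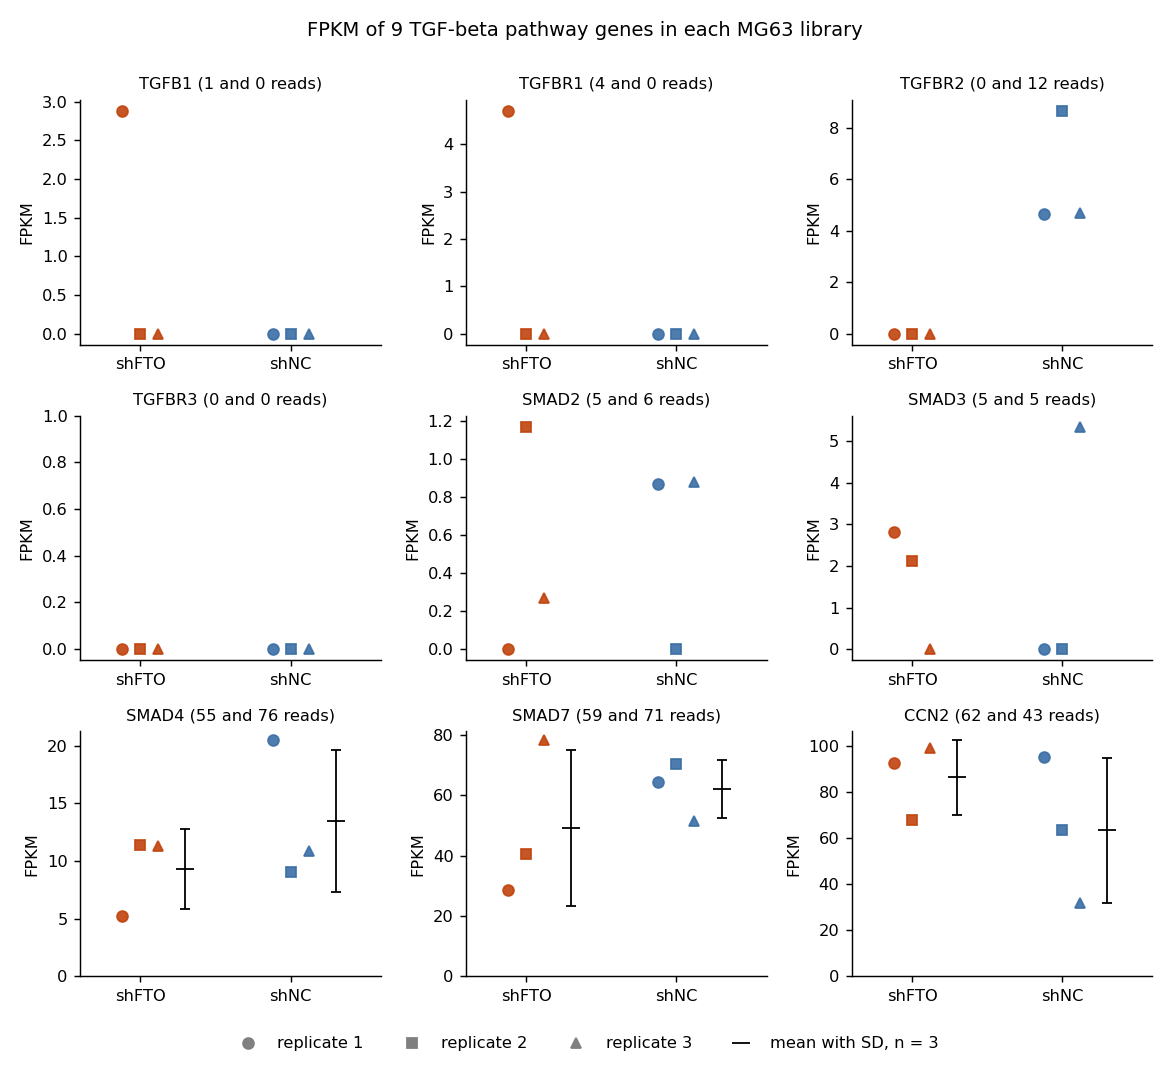
FPKM of each of the 9 genes in each library (points; shapes are replicates), shFTO left of shNC, with the reads of the 2 groups in each title; black marks give the mean and SD (n = 3) for genes above 0 in every library. TGFBR2 lies at 0 in the 3 shFTO libraries and between 4.64 and 8.67 FPKM in the 3 shNC libraries, while SMAD4, SMAD7 and CCN2 overlap between groups.

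TGFB1, the founding ligand, had 1 read in all, in shFTO replicate 1, which was worth 2.88 FPKM. Its limit of 3 reads over the shNC libraries was 3.18 FPKM. Differences in TGFB1 between levels below about that limit were not detectable at this depth. The TGFB1 locus overlaps 5 listed genes, 3 of them with 11 reads together, and without a stated strand setting for the counting its single read is uncertain. The type I receptor gene TGFBR1 had 4 reads, all in shFTO replicate 1 (4.71 FPKM), and was at 0 in the other 2 shFTO libraries and in the 3 shNC libraries. The TGFBR1 values therefore rest on 1 library: without it the gene has no reads. TGFBR3 was at 0 in all 6 libraries, with limits over a group of 1.15 FPKM in shFTO and 1.21 FPKM in shNC.

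The type II receptor gene TGFBR2 (ENSG00000163513, GRCh38 chromosome 3, 30606601 to 30694142, plus strand) was at 0 in the 3 shFTO libraries, against 4.64, 8.67 and 4.68 FPKM in shNC replicates 1, 2 and 3. These stood for 0, 0 and 0 reads in shFTO and for 3, 6 and 3 reads in shNC. The limit of 3 reads over the shFTO libraries was 1.44 FPKM for TGFBR2. Of its 12 shNC reads 6 were in replicate 2. Because TGFBR2 was picked for this pattern, whether its transcripts were fewer in shFTO cells was not tested. Bulk RNA also cannot tell fewer cells with TGFBR2 transcripts from fewer transcripts in each cell. In no library were reads of both TGFBR1 and TGFBR2 found. This follows from TGFBR1 having reads in shFTO replicate 1 alone and from TGFBR2 being picked for its absence in shFTO.

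The TGFBR2 pattern of reads in every library of one group and none in the other was found for 40 of 7057 genes (0.567%) with the reads in shNC, and for 42 (0.595%) with the reads in shFTO. Among the 40, TGFBR2 ranked 3 by reads, and these genes had between 3 and 15 reads and a median of 5. The 42 genes with reads in shFTO had between 3 and 10 reads. Among 417 genes with 10 to 14 reads in all, as TGFBR2 has, 3 (0.719%), TGFBR2 included, had no read in shFTO and 1 (0.24%) had none in shNC. Among these one-sided genes alone, those most like TGFBR2 by summed absolute difference in reads per 100000 over the 6 libraries were C5orf24 at 5.10, TAP1 at 5.25, KDSR at 6.02 and NBPF9 at 6.09, the last equal with PTTG1. C5orf24 had 0 reads in each shFTO library, against 4, 9 and 2 reads in shNC replicates 1, 2 and 3. TAP1, a subunit of the transporter that loads peptides for antigen presentation, had 0 reads in each shFTO library, against 1, 7 and 1 reads in shNC. KDSR encodes an enzyme of sphingolipid synthesis, and reads of NBPF9 are uncertain because its family has near-identical copies.

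**Figure D2:**
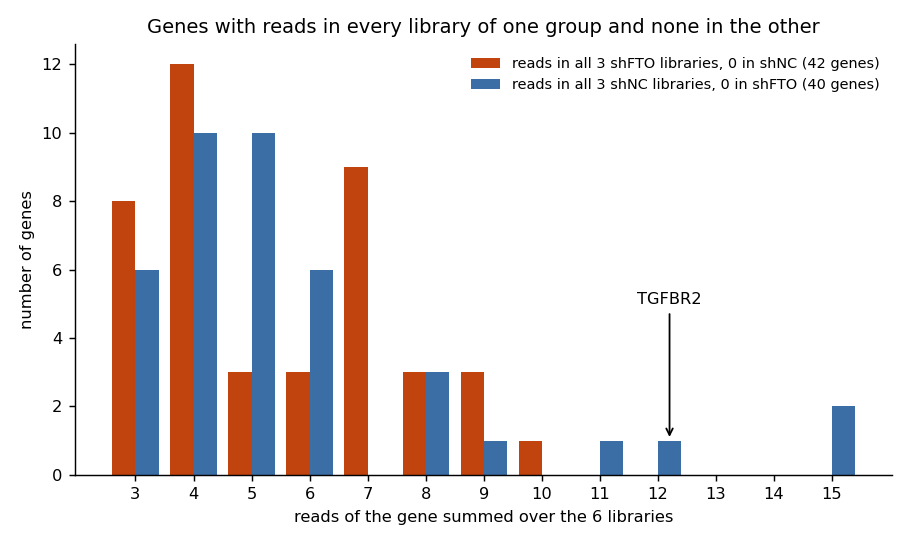
Number of genes (vertical axis) by reads summed over the 6 libraries (horizontal axis), for genes with reads in all 3 shFTO libraries and 0 in shNC (orange, 42 genes) and genes with reads in all 3 shNC libraries and 0 in shFTO (blue, 40 genes). TGFBR2, with 12 reads, sits toward the right end of the blue bars, and most genes of both kinds have far fewer reads.

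The SMAD genes differed in how well they were covered. SMAD2 and SMAD3, the receptor-activated SMADs of TGF-beta, had 11 and 10 reads over the 6 libraries. SMAD2 stood at 0, 1.17 and 0.27 FPKM in shFTO replicates 1, 2 and 3, against 0.87, 0 and 0.88 FPKM in shNC. SMAD3 stood at 2.83, 2.13 and 0 FPKM in shFTO, against 0, 0 and 5.35 FPKM in shNC, where all 5 reads were in replicate 3. Both genes overlapped between groups. The ratio of reads in shFTO to shNC, scaled to library totals, was 0.793 for SMAD2 (exact 95% interval 0.191 to 3.12) and 0.951 for SMAD3 (0.219 to 4.13), and both intervals include 2-fold changes in either direction.

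SMAD4, the partner shared by all receptor-activated SMADs, stood at 5.26, 11.35 and 11.3 FPKM in shFTO replicates 1, 2 and 3, against 20.48, 9.06 and 10.86 FPKM in shNC. Its lowest value was in shFTO replicate 1 and its highest in shNC replicate 1, and the remaining 4 values lay between 9.06 and 11.35 FPKM. The mean was 9.30 ± 3.50 FPKM in shFTO and 13.5 ± 6.14 FPKM in shNC (SD, n = 3 each), from 55 reads in shFTO and 76 in shNC. The read ratio of SMAD4 was 0.688, with an exact 95% counting interval from 0.478 to 0.987. The libraries of a group differed by more than counting error, at 4.01 times the variance that counting alone gives. The median of that measure was 1.63 over 705 genes with a mean of at least 10 reads per library. In the fit across all genes SMAD4 had a log2 fold change of -0.48 on log2(FPKM + 1) (SE 0.57, limma adjusted p = 0.772), and it was -0.15 without shFTO replicate 1 and -0.15 without shNC replicate 1.

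SMAD7, the inhibitory SMAD, stood at 28.6, 40.4 and 78.4 FPKM in shFTO replicates 1, 2 and 3, against 64.5, 70.3 and 51.4 FPKM in shNC. The 3 shNC values lay within the range of the shFTO values. The mean was 49.1 ± 26.0 FPKM in shFTO and 62.1 ± 9.64 FPKM in shNC (SD, n = 3 each), from 59 reads in shFTO and 71 in shNC. SMAD7 had a log2 fold change of -0.44 (SE 0.32, 95% interval -1.09 to 0.20, limma adjusted p = 0.772), which was -0.13 without shFTO replicate 1 and -0.84 without shFTO replicate 3. CCN2, the target gene of the set, stood at 92.6, 68.2 and 99.2 FPKM in shFTO, against 95.2, 63.5 and 32.0 FPKM in shNC. Its lowest value was in shNC replicate 3, with 7 reads, and its other values overlapped between groups. The mean of CCN2 was 86.7 ± 16.3 FPKM in shFTO and 63.6 ± 31.6 FPKM in shNC (SD, n = 3 each), from 62 reads in shFTO and 43 in shNC. CCN2 had a log2 fold change of 0.55 (SE 0.33, 95% interval -0.13 to 1.24, limma adjusted p = 0.772), and without shNC replicate 3 the change was 0.14. The intervals of SMAD7 and CCN2 include no change and also include changes past 2-fold in one direction.

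SMAD7 and CCN2 are the members known as direct targets of the pathway, and their promoters are shown to place the letters that SMAD proteins recognise. The stretches are the 250 bases before the transcript start, from RefSeq on GRCh38.p14, minus strand, chr18:48950966-48951215 for SMAD7 and chr6:131951373-131951622 for CCN2. Capitals mark the SMAD box (GTCT or its reverse complement AGAC) and the motif GGAATG or CATTCC of the TEAD factors, through which YAP and TAZ also induce CCN2.
SMAD7: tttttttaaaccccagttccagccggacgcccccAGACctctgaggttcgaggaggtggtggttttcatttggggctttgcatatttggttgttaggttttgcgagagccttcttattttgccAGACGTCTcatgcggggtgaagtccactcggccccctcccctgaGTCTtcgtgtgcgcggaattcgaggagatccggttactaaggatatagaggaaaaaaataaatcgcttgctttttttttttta
CCN2: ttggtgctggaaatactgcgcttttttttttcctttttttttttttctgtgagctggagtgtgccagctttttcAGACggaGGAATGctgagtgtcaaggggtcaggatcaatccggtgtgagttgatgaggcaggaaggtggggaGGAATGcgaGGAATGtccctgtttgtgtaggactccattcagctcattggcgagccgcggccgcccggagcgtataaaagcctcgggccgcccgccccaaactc
The SMAD7 stretch held 4 SMAD boxes, which start 216, 127, 123 and 83 bases before the transcript start, the middle pair adjoining, and no TEAD motif. The CCN2 stretch held 1 SMAD box, 176 bases before the start, and 3 TEAD motifs, 169, 104 and 95 bases before it. Of 35116 promoters of the same length 77.5% held at least 1 SMAD box and 7.75% held 4 or more, while 11.9% held a TEAD motif and 0.0826% held 3 or more. These matches describe the letters only.

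In limma on log2(FPKM + 1) over 4932 genes, 2 genes (0.0406%) were called at an adjusted p under 0.05, both lower in shFTO. Beside TGFBR2, 5 members could be tested, TGFBR1, SMAD3, SMAD4, SMAD7 and CCN2, and 0 were called. None of the 5 had an unadjusted p under 0.05, against 3.85% of the genes tested, and limma-voom on recovered reads called 0 of them. TGFBR1 passed the filter through 1 library of shFTO alone. TGFB1, TGFBR3 and SMAD2 were below a mean of 1 FPKM in both groups and were not tested. For SMAD2 this rests on its length, with 11 reads over 36426 exonic bases, against 10 reads over 9981 for SMAD3. TGFBR1 and SMAD3 had log2 fold changes of 0.84 (SE 0.87) and 0.31 (SE 1.07), with limma adjusted p values of 0.772 and 0.952. The groups overlapped for all 5 members, where 6.59% of the genes tested did not overlap. TGFBR2, chosen for that property, did not.

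A wider list of 87 pathway genes held the 9 members with further ligands, latency proteins, receptors, SMADs, regulators and targets. Reads were found for 55 of them, 999 in shFTO and 934 in shNC. Of the 43 tested beside TGFBR2, 0 were called higher and 0 were called lower in limma, and limma-voom on recovered reads called 0. Over all 4932 genes tested limma called 2 (0.0406%) and limma-voom 5. Counts of 0 among these 43, and in the smaller groups below, are near that share and say little about the pathway. An unadjusted p under 0.05 was found for 2 of the 43, a share near the 3.85% of all genes tested. Some of the 43 passed the filter through one group alone, so no median or direction is given over them. Among the 12 with a mean of 10 or more reads the median log2 fold change was 0.02, against 0.00 over 705 such genes. The 2 genes with an unadjusted p under 0.05 were JUNB and STRAP. JUNB, an early target encoding an AP-1 subunit, had 4, 4 and 0 reads in shFTO replicates 1, 2 and 3, against 0 reads in each shNC library (limma adjusted p = 0.772). JUNB passed the filter through shFTO alone, so its p draws on the group that admitted it. Genes admitted through one group are also counted in the share over all genes tested. STRAP, which encodes a protein that holds SMAD7 at the receptor, had 5 reads in shFTO and 1 in shNC (limma adjusted p = 0.772).

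**Figure D3:**
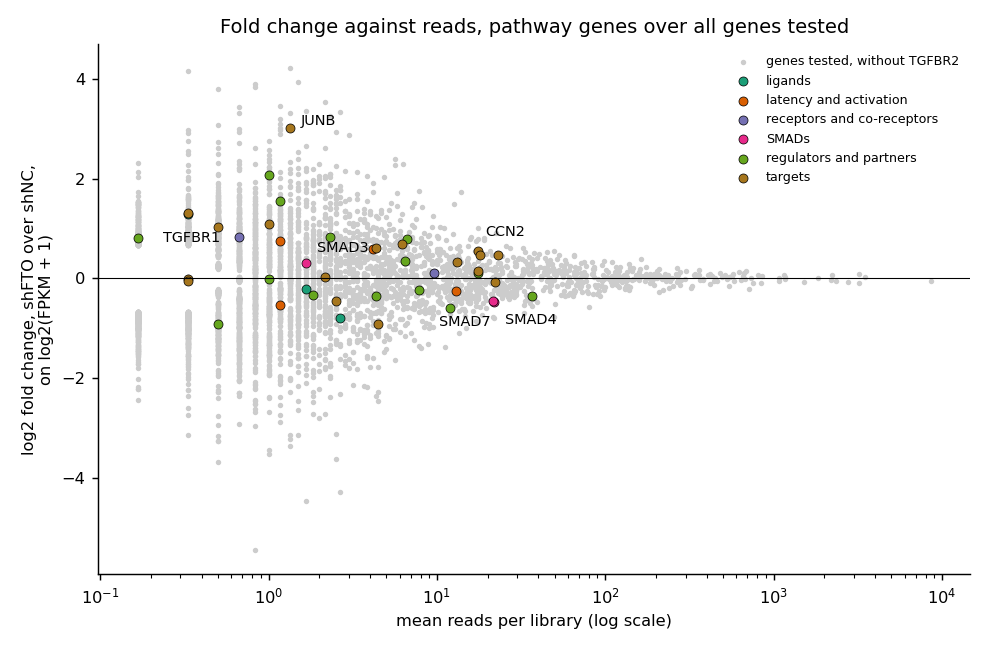
Log2 fold change of shFTO over shNC on log2(FPKM + 1) (vertical axis) against mean reads per library on a log scale (horizontal axis), for the genes tested (grey) and the tested pathway genes (coloured by role), with TGFBR2 left out. Estimates spread widely where reads are few, as for JUNB, and SMAD4, SMAD7 and CCN2 lie within the grey cloud at their depth.

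Among ligand genes, 5 of 14 had reads, and 0 of 3 tested were called. TGFB3 had the most, with 3, 4 and 0 reads in shFTO against 2, 3 and 4 reads in shNC. INHBA, which encodes an activin subunit, had 4 reads in shFTO and 6 in shNC, and BMP2, a bone-forming ligand, had 2 in shFTO and 0 in shNC. Among genes for latency and activation, 0 of 4 tested were called. THBS1, whose product thrombospondin activates latent TGF-beta, stood at 12.9 ± 1.40 FPKM in shFTO and 15.8 ± 3.76 FPKM in shNC (SD, n = 3 each). LTBP1, which tethers latent ligand to the matrix, had 15 reads in shFTO and 10 in shNC. LTBP3, a relative of LTBP1, had 2 reads in shFTO and 5 in shNC, and the integrin gene ITGAV had 6 in shFTO and 1 in shNC. The read ratio of ITGAV was 5.71 with an exact 95% counting interval from 0.692 to 263. ITGAV and BMP2 passed the filter through shFTO alone, and LTBP3 through shNC alone. Their contrasts therefore draw on the group that admitted them.

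Among 12 receptor genes ACVR2A, a type II receptor of activins, had the most reads, at 17.5, 21.4 and 8.99 FPKM in shFTO against 9.86, 12.3 and 21.5 FPKM in shNC. The ACVR2A groups overlapped (log2 fold change 0.12, SE 0.51, limma adjusted p = 0.953). ACVR1, a type I receptor, had 3 reads in shFTO and 0 in shNC. The summed reads of the receptor genes came to 13.2 ± 4.76 per 100000 in shFTO and 14.2 ± 4.35 per 100000 in shNC (SD, n = 3 each). Without TGFBR2 they came to 13.2 ± 4.76 per 100000 in shFTO and 10.1 ± 4.41 per 100000 in shNC, and both sums overlapped between groups.

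Of 18 regulators and partners 16 had reads and 0 of 14 tested were called. PPM1A, a phosphatase that removes the activating phosphates of SMAD2 and SMAD3, stood at 26.9, 28.6 and 27.6 FPKM in shFTO, against 34.7, 36.6 and 35.0 FPKM in shNC. The groups did not overlap and each varied little, while 3.69% of the genes tested were lower in shFTO without overlap. PPM1A had a log2 fold change of -0.35 (SE 0.35, limma adjusted p = 0.772), and its read ratio was 0.780 with an exact 95% counting interval from 0.592 to 1.02. TRIM33, a ubiquitin ligase that binds SMADs, stood at 19.1 ± 4.85 FPKM in shFTO and 17.6 ± 3.80 FPKM in shNC (SD, n = 3 each). WWP1, another ubiquitin ligase, stood at 11.1 ± 0.639 FPKM in shFTO and 13.3 ± 1.72 FPKM in shNC. USP15, a deubiquitinase of the receptor complex, had 17, 14 and 1 reads in shFTO against 11, 22 and 7 reads in shNC. FKBP1A, which encodes a protein that keeps TGFBR1 inactive, had 6 reads in shFTO and 1 in shNC (limma adjusted p = 0.772). FKBP1A passed the filter through shFTO alone.

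Among 24 target genes 17 had reads, all 17 were tested and 0 were called. COL1A1, a fibrillar collagen gene, stood at 28.2, 41.3 and 22.5 FPKM in shFTO against 27.1, 16.5 and 21.3 FPKM in shNC (log2 fold change 0.47, SE 0.40, limma adjusted p = 0.772). TGFBI, a matrix protein gene named for its induction by TGF-beta, stood at 23.2, 35.8 and 22.5 FPKM in shFTO against 31.6, 14.1 and 15.2 FPKM in shNC (limma adjusted p = 0.772). VEGFA, an angiogenic factor gene, stood at 15.6 ± 5.96 FPKM in shFTO and 15.5 ± 1.39 FPKM in shNC (SD, n = 3 each). HMGA2, a chromatin gene named here after its values were seen, was the target gene whose groups did not overlap. It had 4, 1 and 1 reads in shFTO against 0 in each shNC library, and is among the 42 such one-sided genes. HMGA2 passed the filter through shFTO alone, so its lack of overlap draws on the group that admitted it. Of the genes tested, 2.9% were higher in shFTO without overlap. By summed reads the targets came to 152 ± 20.0 per 100000 in shFTO and 120 ± 18.3 per 100000 in shNC. Those values were 168, 159 and 130 in shFTO against 134, 128 and 99.3 in shNC, so the groups overlapped. The SMAD genes came to 24.5, 45.7 and 55.1 per 100000 in shFTO against 70.0, 45.5 and 50.2 in shNC and also overlapped.

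**Figure D4:**
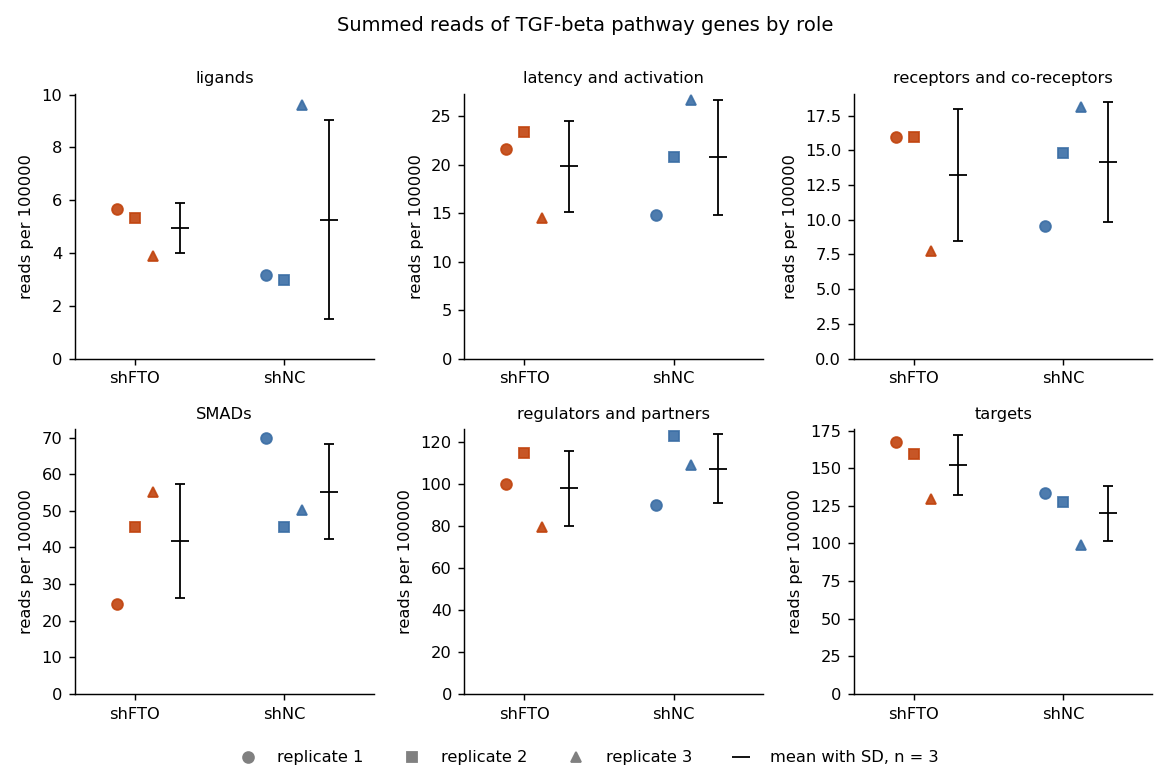
Summed reads per 100000 library reads for each role group of the 87 pathway genes, per library (points; shapes are replicates), shFTO left of shNC, with mean and SD (black, n = 3). The 2 groups overlap in every panel; targets have means of 152 in shFTO and 120 in shNC.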

How the data were processed

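Poly(A) RNA from 6 MG63 libraries was sequenced, per the labels' protocols. The submitters' processing notes name the aligner HISAT2 2.2.1, the counter HTSeq 0.6.1 and also StringTie 1.3.3b, FastQC 0.10.1, DESeq2 1.50.2 and GRCh38. Their order and the strand setting of counting are not stated. The authors deposited FPKM to 2 decimals beside the exonic length of each gene in bases. Columns NC and sh were matched by number to shNC and shFTO replicates.

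FPKM times length gave whole reads within 0.05 read for 100% of values above 0, at a library total searched between 20000 and 200000. Genes whose mean reached 1 FPKM in either group were fitted with limma 3.58.1 (R 4.3.3, trend and robust) on log2(FPKM + 1), a scale that understates changes of low genes, with p-values adjusted by Benjamini-Hochberg over all 4932 genes. Read ratios had exact Clopper-Pearson intervals (SciPy 1.17.1). Promoters of 9 of 9 members were found in RefSeq.

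The members and lists were chosen with earlier results of these data known. Named genes were the members, in each role the 4 with the most reads and the 2 with the smallest p, and the 4 most like TGFBR2 among genes with reads in every library of one group and none in the other. Same-numbered libraries did not deviate together (correlations of -0.00, 0.04 and -0.01 over 705 genes), so they were not treated as paired.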

Additional observations from a re-analysis of the deposited data

How the results depend on the processing

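The count of 0 called members and 0 called pathway genes beside TGFBR2 held under all 13 alternatives run. Over all genes the count of 2 called genes became 7 (5 higher, 2 lower) with a pseudocount of 0.1, 9 (7 higher, 2 lower) without a filter, 0 with a mean of at least 5 FPKM, 4 (2 higher, 2 lower) with upper-quartile scaling and 5 (1 higher, 4 lower) in limma-voom on recovered reads. With a replicate block it was 17 (13 higher, 4 lower), and leaving out 1 library gave between 2 and 9. The cause was not tested. The estimate of SMAD3 changed sign with 1 library left out, between -0.14 and 1.19, and those of SMAD4, SMAD7 and CCN2 kept their direction in every alternative run, at -0.70 to -0.15, -0.84 to -0.13 and 0.14 to 0.91. Their limma adjusted p ranged between 0.678 and 0.948. TGFBR1, with reads in shFTO replicate 1 alone, could take only one direction, and without that library it gave no value. Neither TGFBR1 nor SMAD3 had one at a mean of at least 5 FPKM. The fitted change of TGFBR2 depends on the pseudocount and is not given. GENCODE release 29 lengths and the receptor sum without TGFBR2 were chosen after seeing the data. At this depth 6 of the 9 members, TGFBR2 among them, had 12 reads or fewer. Whether depth or low transcript levels set those counts was not tested.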

Other observations

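The genes SMAD2, SMAD4 and SMAD7 all lie on chromosome 18. On that chromosome 124 other genes had reads. They came to 347, 350 and 331 reads per 100000 in shFTO replicates 1, 2 and 3, against 430, 352 and 391 in shNC, so the 2 groups did not overlap there. Their mean was 343 ± 10.4 per 100000 in shFTO and 391 ± 39.4 per 100000 in shNC (SD, n = 3 each). Over 23 chromosomes, each summed without the 9 members, the ratio of the shFTO to the shNC mean ran between 0.876, on chromosome 18, and 1.18. The groups did not overlap with shFTO higher on 4 chromosomes and with shFTO lower on 3, including chromosome 18. These sums were made after the SMAD values were seen, and their part in the SMAD values was not tested.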
